A study of Mus musculus with 18 samples.

Results

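A set of 10 genes that move iron into, within and out of cells was followed in mouse tail tendon fibroblasts (TFs): the uptake genes Tfrc and Slc11a2, the ferritin genes Fth1 and Ftl1 with the ferritin receptor gene Ncoa4, the export genes Slc40a1 and Heph, the regulator genes Ireb2 and Aco1, and the heme-degrading enzyme gene Hmox1. They were taken by gene symbol, 10 of the 55491 rows of the count table, and all 10 passed the filter on low counts. The study asked how TFs respond to low oxygen and what part of that response needs Hif1a, the oxygen-sensitive subunit of the transcription factor HIF-1. Poly-A RNA was sequenced from 18 libraries in 6 groups of 3 after 4 days of culture in 20% O2 or 1% O2.

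Ctrl TFs carried the label wild-type, and the culture methods of the study call them Cre-negative. For the mouse colony as a whole, Hif1a flox/flox animals without Cre and Hif1a flox/WT animals with ScxCre both served as Ctrl. Only the first of these is Cre-negative, and the labels do not name the floxed alleles of the Ctrl TFs. cKO TFs, labelled Hif1a knockout, came from Hif1a flox/flox;ScxCre mice, in which Cre is driven by Scx, a gene of tendon cells, and recombination in a cultured TF depends on whether that cell or its ancestors had expressed Scx. The 4 groups of this experiment were Ctrl in 20% O2, Ctrl in 1% O2, cKO in 20% O2 and cKO in 1% O2. In the other two groups Ctrl TFs in 20% or 1% O2 also received Cre gesicles, which are cell-derived vesicles that deliver Cre protein. Cells of all 6 groups crawled out of collagen gels from tail tendons of mice of both sexes, aged between 4 and 6 months, and were passaged in serum-containing medium before the O2 treatment.

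Iron bound to transferrin enters cells through the transferrin receptor (Tfrc), is reduced, and leaves the endosome through a divalent metal transporter (Slc11a2); what is not used is stored in ferritin, a shell of heavy (Fth1) and light (Ftl1) chains, or leaves the cell through ferroportin (Slc40a1), the only known iron exporter, with the help of a ferroxidase such as hephaestin (Heph). When iron is scarce, the iron regulatory proteins encoded by Aco1 and Ireb2 bind a hairpin called the iron-responsive element, which blocks translation when it lies in the 5′ UTR of an mRNA (ferritins, ferroportin) and protects the mRNA from decay when it lies in the 3′ UTR (Tfrc). Heme oxygenase 1 (Hmox1) releases iron from heme, NCOA4 carries ferritin to the lysosome, and several of these genes are known transcriptional targets of HIF or of the oxidant-responsive factor NRF2.

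The hairpin sequences are shown because their place bears on what mRNA counts can see: a 3′ hairpin acts on mRNA decay, which counts register, and a 5′ hairpin on translation, which they do not. All GENCODE M21 protein-coding transcripts (GRCm38) were searched for a C followed by 5 bases, the loop CAGTGN (N not G) and 5 bases that pair with the first 5, with at least 3 of the 5 pairs of the lower stem also formed. Of 21847 protein-coding genes searched, 33 (0.151%) held such letters in a UTR, and 4 of the 10 iron genes did. Each site is printed 5′ to 3′ on the strand of the mRNA, with the loop in capitals:
Fth1 5′ UTR (chr19:9982732-9982760, + strand): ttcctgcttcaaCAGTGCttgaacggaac
Ftl1 5′ UTR (chr7:45459779-45459807, − strand): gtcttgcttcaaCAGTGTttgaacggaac
Slc40a1 5′ UTR (chr1:45925465-45925493, − strand): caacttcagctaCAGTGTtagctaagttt
Tfrc 3′ UTR (chr16:32631219-32631247, + strand): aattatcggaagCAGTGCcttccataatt
Tfrc 3′ UTR (chr16:32631598-32631626, + strand): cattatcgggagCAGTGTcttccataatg
Tfrc 3′ UTR (chr16:32631663-32631691, + strand): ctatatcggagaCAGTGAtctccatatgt
Tfrc 3′ UTR (chr16:32631710-32631738, + strand): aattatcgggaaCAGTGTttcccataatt
Tfrc held 4 sites within its 3′ UTR, and each of the other genes held 1 in its 5′ UTR. The Slc40a1 site was found in 1 of its 4 annotated protein-coding transcripts, the Tfrc sites in 1 of 3, the Ftl1 site in 1 of 2 and the Fth1 site in 4 of 5, and gene-level counts do not separate transcripts with and without a site. The search found no match in Slc11a2, Hmox1, Ncoa4, Heph, Ireb2 or Aco1, which says only that letters of this strict form were not in their annotated transcripts.

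Library totals ran from 6857558 estimated counts (cKO in 1% O2, replicate 1) to 51806453, and the other 17 libraries held at least 26967440. Levels are given as counts scaled to a common library size (CPM) after TMM scaling, a normalization that equalizes the bulk of genes between libraries, and a count of 3 corresponded to at most 0.437 CPM in any library, far below every value of the 10 genes. Groups of 3 libraries without overlap are a description only, because an exact permutation test of 3 against 3 gives no p under 0.1. The share of all genes without overlap was not counted. The TFs expressed all 9 tendon fibroblast markers examined, while the 5 erythroid genes, globins among them, summed to at most 0.159 CPM, and the macrophage markers Adgre1 and Cd163 were at 0 in 5 of the 6 groups each, with the 8 macrophage markers summing to between 11.7 and 27.2 CPM in groups that overlapped throughout. The 4 endothelial markers summed to between 25.8 and 76.6 CPM in the 20% O2 libraries and between 11.5 and 40.0 CPM in the 1% O2 libraries, lower in 1% O2 without overlap in Ctrl and gesicle-treated Ctrl, and their part in the O2 results was not tested. Hif1a itself was not lower in the libraries labelled cKO (377 ± 72.8 CPM in cKO against 348 ± 19.6 in Ctrl in 20% O2, and 443 ± 54.3 against 420 ± 63.0 in 1% O2, mean ± SD, n = 3). In gesicle-treated Ctrl, Hif1a was at 362 ± 31.0 CPM in 20% O2 and 384 ± 12.3 CPM in 1% O2. Whole-gene counts include reads outside the floxed exon, so they do not check the deletion. By qPCR after a longer culture, the paper reports reduced Hif1a expression in TFs of the knockout mice. Cre counts were 1, 5 and 4 in cKO in 20% O2 and 0, 2 and 3 in cKO in 1% O2. All Ctrl libraries, with or without gesicles, held 0 Cre counts. Such low counts mark the transgene and do not measure the deletion. Xist, the X-inactivation RNA, was at 0 counts in replicate 1 of Ctrl with and without gesicles and in replicates 2 and 3 of cKO, and at 117 to 833 counts in the others, so sex differed in its balance between Ctrl (1 library without Xist of 3) and cKO (2 of 3). In bulk RNA, fewer cells of a type and less RNA per cell cannot be told apart.

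Ferritin dominated the 10 genes. In Ctrl in 20% O2, Fth1 and Ftl1 together took 0.849 ± 0.0146% of all counts, and the 10 genes together 0.931 ± 0.00746%. Per kilobase of exon, the order of levels in Ctrl in 20% O2 was Ftl1 (3696 ± 232 CPM per kb), Fth1 (996 ± 49.4), Hmox1 (244 ± 56.8), Ncoa4 (16.9 ± 0.261), Aco1 (15.9 ± 0.299), Ireb2 (6.01 ± 0.104), Slc11a2 (6.01 ± 0.508), Tfrc (5.75 ± 0.373), Heph (2.16 ± 0.584) and Slc40a1 (1.00 ± 0.19). Ireb2, Slc11a2 and Tfrc did not differ beyond their spread, and the values of the other neighbours did not overlap. The exon length of Fth1 includes a longer annotated transcript, so its level per kb may be low. In Ctrl in 1% O2 Slc40a1 was still the lowest of the 10, at 3.96 ± 1.86 CPM per kb against 5.15 ± 0.534 for Tfrc, a gap within the spread. In cKO in 1% O2 it stood above Tfrc, at 6.84 ± 0.879 against 2.38 ± 0.231 CPM per kb.

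**Figure D1:**
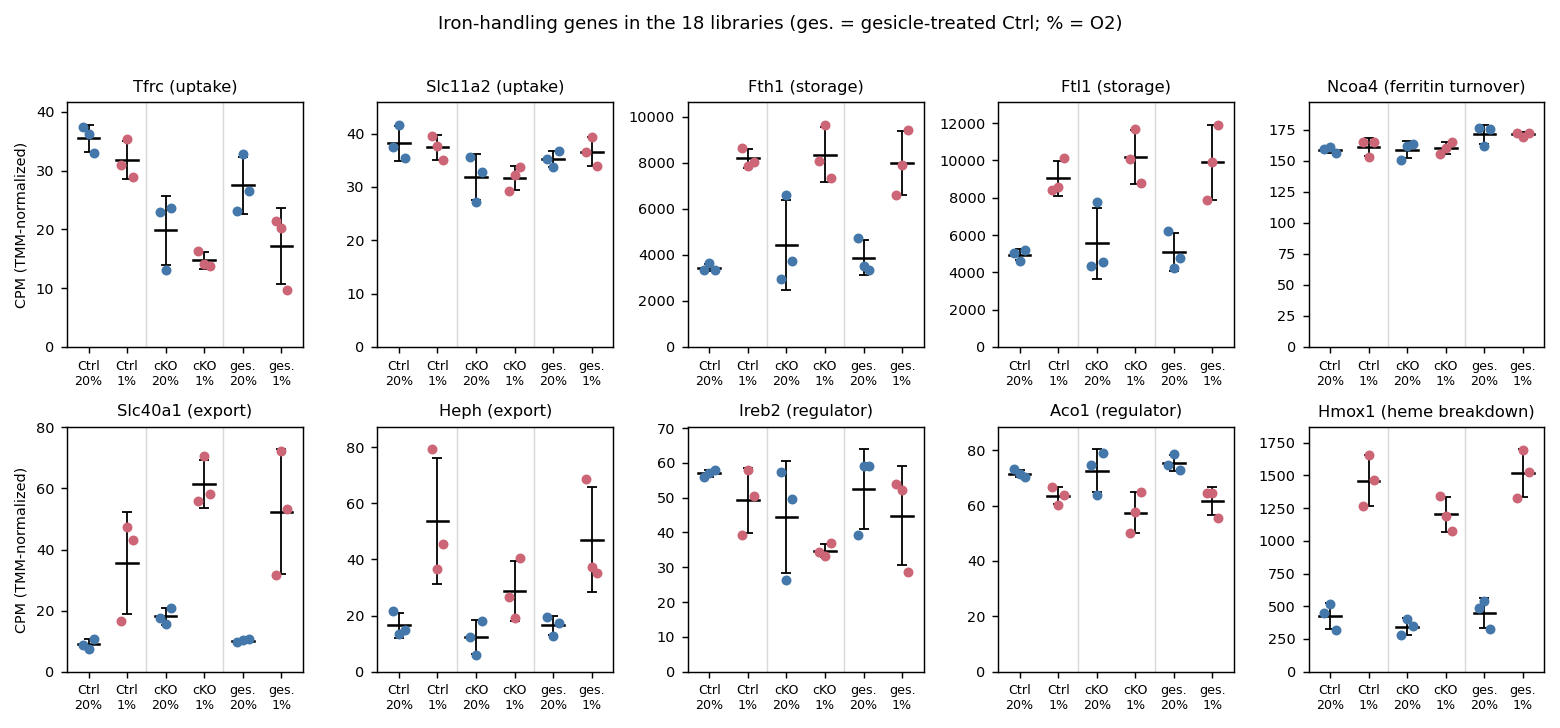
TMM-normalized CPM (linear axes from 0) of the 10 iron genes in each library, by arm and O2 (blue points 20%, red points 1%), with the mean as a bar and the SD of 3 libraries as whiskers. Fth1, Ftl1, Slc40a1, Heph and Hmox1 stood higher in 1% O2 with no overlap in each arm, Ncoa4 and Slc11a2 were level, and Tfrc lay lower in cKO than in Ctrl. Lack of overlap is a description only, as the share of all genes without overlap was not counted.

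Transcripts of ferroportin and heme oxygenase 1 were called higher in 1% O2 in each arm. Those of the ferritins stood higher in each arm but, in the test without pairing, passed the threshold only in some, while neither uptake gene was called. Within each arm, 1% O2 was compared with 20% O2 by edgeR's quasi-likelihood test over all genes, and a gene was called at an adjusted p under 0.05 with a fold change of at least 1.5. In Ctrl, 3 of the 10 genes were called, all higher (Slc40a1, Fth1 and Hmox1), where 1.88% of the 15850 genes tested were called, 1.47% higher and 0.41% lower. This test did not pair libraries. With the replicate number within each arm as a block, 5 of 10 were called in Ctrl, Ftl1 and Heph being added (368 genes in all). In cKO, 2 of 10 were called, both higher (Slc40a1 and Hmox1), against 2.1% of all genes, 1.4% higher and 0.7% lower. In gesicle-treated Ctrl, 4 of 10 were called, all higher (Slc40a1, Fth1, Ftl1 and Hmox1), against 2.41% of 16174 genes, 1.64% higher and 0.767% lower. With the response averaged over the 3 arms, a comparison that reuses the same 18 libraries, 5 of 10 were called higher (these 4 and Heph) and none lower, against 10.5% of all genes, 5.36% higher and 5.13% lower. The block also gave 5 of 10 in cKO and in gesicle-treated Ctrl (444 and 472 genes in all), though not every same-numbered pair there deviated together. DESeq2 called 5 of 10 in Ctrl, cKO and gesicle-treated Ctrl alike (694, 889 and 728 genes in all).

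Ferroportin, Slc40a1 (chr1:45908068-45926523), rose in each arm. In Ctrl it measured 8.74, 7.47 and 10.9 CPM in 20% O2 and 16.5, 47.3 and 43.2 CPM in 1% O2. The groups did not overlap, and replicate 1 gave the smallest rise. The increase was 3.97-fold (log2 fold change 1.99 ± 0.32 SE, adjusted p = 0.00732). In cKO the values were 17.7, 15.6 and 21 CPM in 20% O2 and 55.9, 70.6 and 58.1 CPM in 1% O2, a 3.42-fold increase (log2 1.78 ± 0.31, adjusted p = 0.0142). In gesicle-treated Ctrl they were 9.66, 10.3 and 10.6 CPM and then 31.6, 72.4 and 53.2 CPM, a 5.13-fold increase (log2 2.36 ± 0.33, adjusted p = 0.00108). All 9 libraries in 1% O2 exceeded the 20% O2 libraries of their own arm. The cKO call was lost without cKO 20% O2 replicate 1 (adjusted p = 0.0601) or 3 (0.0540) or cKO 1% O2 replicate 2 (0.0607), with log2 fold changes of 1.75, 1.90 and 1.68.

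Hephaestin, Heph (chrX:96455359-96574485), oxidizes iron as it leaves the cell. It measured 21.7, 13.3 and 14.8 CPM in Ctrl in 20% O2 and 79.3, 36.5 and 45.4 CPM in 1% O2. Replicate 1 was the highest in both groups, and the groups did not overlap. The log2 fold change of 1.70 ± 0.41 missed the threshold (adjusted p = 0.0541). It passed with the replicate number within each arm as a block (1.66, adjusted p = 0.00255), and same-numbered Ctrl libraries deviated together across the transcriptome. In cKO the values were 12.5, 6.09 and 18.1 CPM in 20% O2 and 26.7, 19.2 and 40.4 CPM in 1% O2 (log2 1.24 ± 0.41, adjusted p = 0.127). In gesicle-treated Ctrl they were 19.6, 12.7 and 17.2 CPM and then 68.5, 37.2 and 35.3 CPM (log2 1.51 ± 0.40, adjusted p = 0.0552). The groups were apart in each arm, and averaged over the 3 arms Heph rose 2.79-fold (log2 1.48 ± 0.23, adjusted p = 0.000354). Ceruloplasmin, Cp, the soluble ferroxidase, was at or below 1.08 CPM in every library.

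Ferritin heavy chain, Fth1 (chr19:9980598-9985098), carries the ferroxidase centre of ferritin. In Ctrl it measured 3356, 3652 and 3355 CPM in 20% O2 and 8665, 7881 and 8064 CPM in 1% O2. The groups were far apart, a 2.39-fold increase (log2 1.25 ± 0.25, adjusted p = 0.0225). In gesicle-treated Ctrl the values were 4754, 3524 and 3355 CPM and then 6628, 7927 and 9438 CPM, a 2.06-fold increase (log2 1.04 ± 0.24, adjusted p = 0.0274). In cKO they were 2945, 6629 and 3717 CPM in 20% O2 and 8087, 9670 and 7346 CPM in 1% O2. There the second 20% O2 library stood apart, and the log2 fold change of 0.92 ± 0.25 missed the threshold (adjusted p = 0.0739). Without that library it was 1.35 (adjusted p = 0.00164). With 1 library left out, the Ctrl call held only without 1% O2 replicate 2, and was lost without any of the other 5 (log2 1.21 to 1.3, adjusted p = 0.0671 to 0.105).

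Ferritin light chain, Ftl1 (chr7:45457944-45459884), promotes mineralization of the iron core. It measured 5025, 4611 and 5222 CPM in Ctrl in 20% O2 and 8432, 8604 and 10125 CPM in 1% O2 (log2 0.88 ± 0.22, adjusted p = 0.0602, and 0.87, adjusted p = 0.0232, with the replicate block). In cKO the values were 4347, 7760 and 4555 CPM and then 10087, 11674 and 8773 CPM (log2 0.88 ± 0.22, adjusted p = 0.0552, and 1.22, adjusted p = 0.00278, without the second 20% O2 library). In gesicle-treated Ctrl they were 6204, 4238 and 4768 CPM and then 7886, 9945 and 11909.9 CPM, a 1.96-fold increase (log2 0.97 ± 0.22, adjusted p = 0.027). No library in 1% O2 fell within the 20% O2 range of its arm. The gesicle calls of Fth1 and Ftl1 were both lost without gesicle 20% O2 replicate 2 or 3 or gesicle 1% O2 replicate 2 or 3 (adjusted p from 0.0746 to 0.138 for Fth1 and from 0.0756 to 0.146 for Ftl1). Averaged over the arms, both rose (Fth1 2.10-fold, adjusted p = 6.51e-05, and Ftl1 1.87-fold, adjusted p = 0.000136).

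As a share of all counts, the ferritin pair went from 0.849 ± 0.0146% to 1.72 ± 0.0851% in Ctrl, from 1.02 ± 0.380% to 1.87 ± 0.247% in cKO and from 0.883 ± 0.166% to 1.74 ± 0.339% in gesicle-treated Ctrl. Fth1 counts per Ftl1 count were 0.701 ± 0.0800 in Ctrl in 20% O2 and 0.913 ± 0.116 in 1% O2. These groups barely missed each other, with a largest ratio of 0.792 in 20% O2 and a smallest of 0.796 in 1% O2. The ratio was 0.783 ± 0.0930 and 0.822 ± 0.0185 in cKO and 0.767 ± 0.0639 and 0.810 ± 0.0265 in gesicle-treated Ctrl, where the O2 groups overlapped. Mouse genomes hold near-identical ferritin copies, and the estimated counts divide shared reads between them, so the split is uncertain. Ftl1-ps1 measured 124 ± 9.83 CPM in Ctrl in 20% O2 and 229 ± 22.7 CPM in 1% O2. In cKO it was called (log2 1.11 ± 0.23, adjusted p = 0.0325), with the shallow replicate 1 highest at 416 CPM. That library also held 109 CPM of Ftl1-ps2, against 28.4 and 15.4 in its group mates. With all copies added to their parent genes, the number of members called was the same in each arm.

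Ncoa4 (chr14:32159865-32179855), whose product delivers ferritin for degradation, did not follow the ferritins. Its 18 values lay between 151 and 176 CPM, with O2 fold changes of 0.03 ± 0.09 in Ctrl, 0.02 ± 0.09 in cKO and 0.00 ± 0.08 in gesicle-treated Ctrl on the log2 scale (adjusted p = 0.924, 0.925 and 0.994). The standard errors were the smallest among the 10 genes.

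Heme oxygenase 1, Hmox1 (chr8:75093621-75100589), rose by a like amount in each arm. It measured 449, 515 and 320 CPM in Ctrl in 20% O2 and 1263, 1657 and 1463 CPM in 1% O2. The groups were well apart, a 3.43-fold increase (log2 1.78 ± 0.20, adjusted p = 0.000627). In cKO the values were 277, 406 and 346 CPM and then 1343, 1192 and 1078 CPM, 3.53-fold (log2 1.82 ± 0.20, adjusted p = 0.000865). In gesicle-treated Ctrl they were 489, 541 and 323 CPM and then 1330, 1695 and 1526 CPM, 3.36-fold (log2 1.75 ± 0.21, adjusted p = 0.000243). The call held in each arm with any 1 library left out and under the 10 other settings tried. The smallest value in 1% O2 was 1078 CPM and the largest in 20% O2 was 541 CPM, so the 9 libraries of one O2 level were separate from the 9 of the other whatever the arm.

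**Figure D2:**
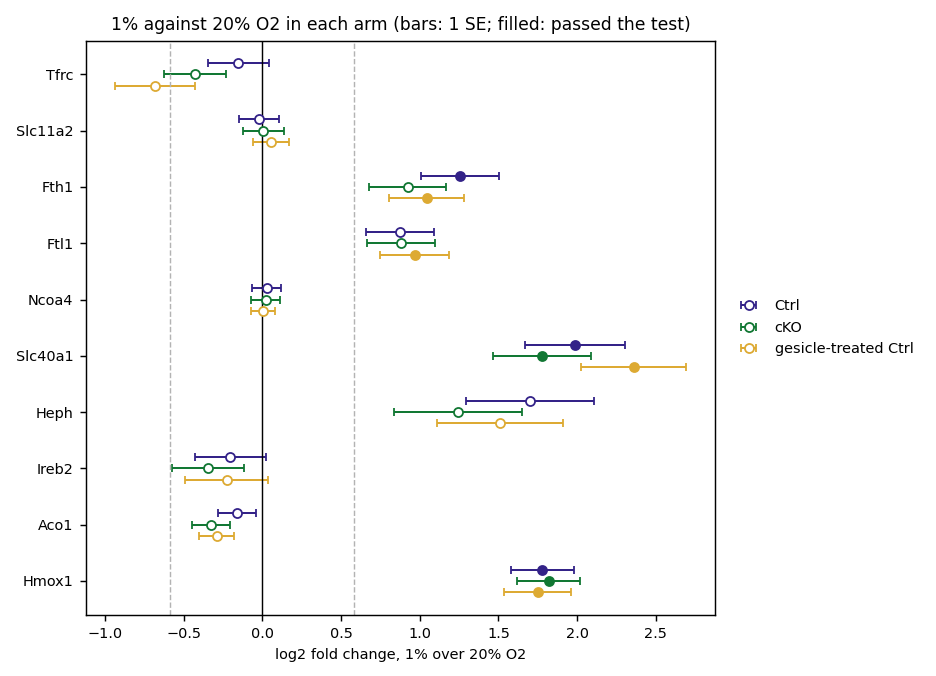
Log2 fold change of 1% over 20% O2 for the 10 iron genes in Ctrl, cKO and gesicle-treated Ctrl, with bars of 1 SE and dashed lines at a 1.5-fold change; filled points were called (adjusted p under 0.05 and at least 1.5-fold). Slc40a1 (1.99, 1.78 and 2.36) and Hmox1 (1.78, 1.82 and 1.75) were called in each arm, and Tfrc, Ireb2 and Aco1 lay below 0.

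On the uptake side, Tfrc (chr16:32608920-32632794) measured 37.5, 36.2 and 33.0 CPM in Ctrl in 20% O2 and 31.0, 35.5 and 29 CPM in 1% O2. The groups overlapped, and the log2 fold change was −0.15 ± 0.19 (adjusted p = 0.762). In cKO it was 22.9, 13.1 and 23.6 CPM and then 16.4, 14.1 and 13.7 CPM (log2 −0.43 ± 0.20, adjusted p = 0.254). Without the second cKO 20% O2 library, the value was −0.65 and was called (adjusted p = 0.013). In gesicle-treated Ctrl it was 23.2, 32.8 and 26.5 CPM and then 21.4, 20.3 and 9.69 CPM, groups that did not overlap (log2 −0.68 ± 0.26, adjusted p = 0.172). Averaged over the arms Tfrc was lower by less than the fold minimum (log2 −0.43 ± 0.15, adjusted p = 0.0465). Slc11a2 (chr15:100387898-100425072), the divalent metal transporter, lay between 27.2 and 41.7 CPM in all libraries, with O2 fold changes of −0.02 ± 0.13, 0.01 ± 0.13 and 0.06 ± 0.12 on the log2 scale.

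The regulators moved little. Aco1 (chr4:40143081-40198338), which is an iron regulatory protein or the cytosolic aconitase depending on its iron-sulfur cluster, measured 73.0, 71.3 and 70.4 CPM in Ctrl in 20% O2 and 66.7, 60.3 and 63.9 CPM in 1% O2, with no overlap and a log2 fold change of −0.16 ± 0.12 (adjusted p = 0.564). It was −0.32 ± 0.12 in cKO and −0.29 ± 0.11 in gesicle-treated Ctrl, and averaged over the arms −0.26 ± 0.06 (adjusted p = 0.00718), under the fold minimum. Ireb2 (chr9:54863789-54912530), the iron regulatory protein that is degraded when iron and oxygen are available, spread from 26.4 to 59.2 CPM with overlapping O2 groups in each arm (log2 −0.20 ± 0.23, −0.34 ± 0.23 and −0.23 ± 0.27). Without the second cKO 20% O2 library, Ireb2 was called lower in cKO (−0.60, adjusted p = 0.0268). Fbxl5, the iron- and oxygen-sensing ubiquitin ligase subunit that marks the IREB2 protein for degradation, was higher in 1% O2 in each arm without overlap. It went from 64.0 ± 5.37 to 93.3 ± 5.38 CPM in Ctrl (log2 0.55 ± 0.11, adjusted p = 0.0216), from 60.4 ± 5.11 to 89.8 ± 1.52 CPM in cKO (0.58 ± 0.11, adjusted p = 0.0199) and from 68.7 ± 6.18 to 91.3 ± 1.78 CPM in gesicle-treated Ctrl (0.41 ± 0.10, adjusted p = 0.0342), each under the 1.5-fold minimum.

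The wider iron pathway was read from lists of 71 further genes in the table, 63 of which passed the filter. In Ctrl 4 of the 63 were called, all higher in 1% O2, where 1.47% of all genes were called higher. In cKO 4 were called higher (1.4% of all genes) and in gesicle-treated Ctrl 5 (1.64%). None was called lower in any of these arms. The median log2 fold change of the 63 was 0.12 in Ctrl, 0.06 in cKO and 0.09 in gesicle-treated Ctrl, beside medians of all genes tested of 0.00, −0.03 and −0.02. Trf, which encodes transferrin itself, rose from 9.36 ± 0.336 to 28.1 ± 6.35 CPM in Ctrl (log2 1.59 ± 0.19, adjusted p = 0.000747), and rose by 1.47 ± 0.18 in cKO and 1.54 ± 0.22 in gesicle-treated Ctrl (adjusted p = 0.00187 and 0.00106). Hfe, the hemochromatosis protein that binds the transferrin receptor, rose from 18.1 ± 1.03 to 39.7 ± 1.92 CPM in Ctrl (log2 1.14 ± 0.12, adjusted p = 0.000457), with 1.27 ± 0.12 in cKO and 0.86 ± 0.14 in gesicle-treated Ctrl (adjusted p = 0.000361 and 0.00246).

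Of 10 further genes of heme transport and breakdown, 2 were called in each arm, both higher, and the list as a whole was mixed. In Ctrl 6 of the 10 had positive and 4 negative log2 fold changes, in cKO 5 and 5, and with gesicles 6 and 4. The medians were 0.13, 0.04 and 0.09. Slc48a1, which moves heme from lysosomes into the cytosol, rose from 398 ± 16.5 to 922 ± 73.4 CPM in Ctrl (log2 1.22 ± 0.14, adjusted p = 0.000744), by 1.13 ± 0.14 in cKO and by 1.20 ± 0.13 in gesicle-treated Ctrl (adjusted p = 0.00187 and 7.19e-05). Blvrb, a biliverdin reductase that acts on a product of heme breakdown, rose by 0.95 ± 0.20, 0.96 ± 0.20 and 1.02 ± 0.21 (adjusted p = 0.0294, 0.0289 and 0.0168). Of 8 heme synthesis genes tested none was called in any arm (medians 0.19, 0.13 and 0.17 on the log2 scale), and none of 16 genes of mitochondrial iron import and iron-sulfur cluster assembly was (medians 0.06, 0.09 and 0.05). With 1.88% to 2.41% of all genes called in these arms, lists of this size would often hold none.

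Slc22a17, a receptor for the siderophore-binding lipocalin 2, was called in gesicle-treated Ctrl (0.96 ± 0.18, adjusted p = 0.00817), and gave 0.67 ± 0.17 in Ctrl and 0.43 ± 0.17 in cKO (adjusted p = 0.0691 and 0.202). Averaged over the arms, 6 of the 63 further iron genes were called higher and 2 lower, beside 5.36% and 5.13% of all genes. The metal transporter gene Slc39a8 (0.66 ± 0.15, adjusted p = 0.00496) and Slc22a17 were also called higher there. Exoc6, an exocyst subunit needed for transferrin cycling in red cell precursors (−0.96 ± 0.20, adjusted p = 0.00299), and Epas1, which encodes HIF-2α and has a known iron-responsive element in its 5′ UTR (−0.80 ± 0.23, adjusted p = 0.0181), were called lower. Steap3, the endosomal iron reductase, was lower by less than the fold minimum (−0.45 ± 0.10, adjusted p = 0.00594), and the iron importer Slc39a14 gave −0.10 ± 0.17 (adjusted p = 0.718).

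A list of NRF2 targets and one of hypoxia reporters were read beside these genes. Of 10 NRF2 targets, 5 were called higher in Ctrl, 4 in cKO and 5 in gesicle-treated Ctrl, beside 1.47%, 1.4% and 1.64% of all genes. Not all rose, as 3 of the 10 had negative log2 fold changes in Ctrl, 2 in cKO and 2 in gesicle-treated Ctrl. The quinone reductase Nqo1 rose by 1.54 ± 0.22, 1.84 ± 0.23 and 1.57 ± 0.22, the glutathione synthesis subunit Gclm by 1.3 ± 0.15, 1.27 ± 0.15 and 1.36 ± 0.14, and Srxn1 and Osgin1 were called in each arm. Of 8 hypoxia reporter genes, 5 were called higher in each arm, beside the same shares of all genes. A negative log2 fold change was found for 1 of the 8 in Ctrl, 0 in cKO and 1 in gesicle-treated Ctrl. The kinase gene Pdk1 rose by 2.64 in Ctrl, 2.0 in cKO and 2.13 in gesicle-treated Ctrl. These lists moved in the same comparisons as Slc40a1, Hmox1 and the ferritins, and a link between them and the iron genes was not tested.

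**Figure D3:**
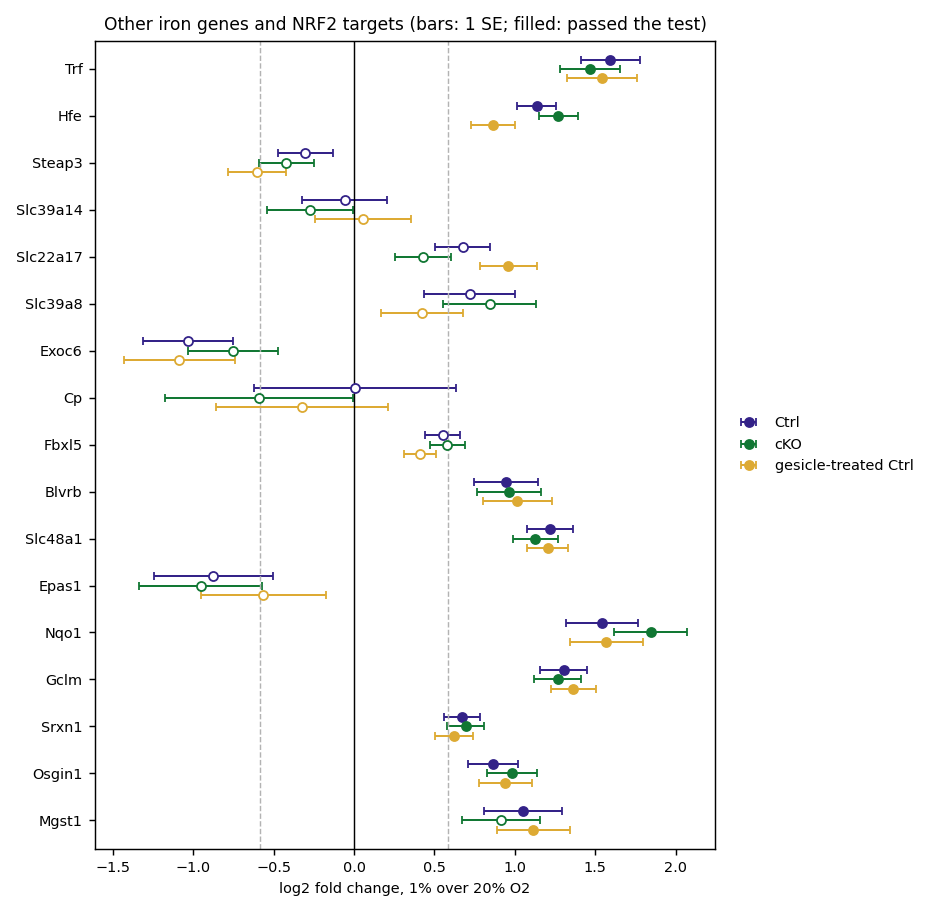
Log2 fold change of 1% over 20% O2 in the 3 arms for other iron genes (Trf to Epas1) and NRF2 targets (Nqo1 to Mgst1), with bars of 1 SE, dashed lines at 1.5-fold and filled points for called genes. Trf, Hfe, Blvrb and Slc48a1 were called in each arm, and Fbxl5 lay at 0.41 to 0.58 with small errors.

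The response to O2 was then compared between arms to ask whether it needs Hif1a. For the difference between the cKO and Ctrl responses, edgeR called none of the 10 genes and 0% of all genes (367 genes at an unadjusted p under 0.05, and 2 genes called by DESeq2). The difference was −0.21 ± 0.43 for Slc40a1, 0.04 ± 0.28 for Hmox1, −0.33 ± 0.35 for Fth1, 0.00 ± 0.30 for Ftl1 and −0.46 ± 0.56 for Heph on the log2 scale. With standard errors of this size, equal responses in Ctrl and cKO are not shown. For gesicle-treated against untreated Ctrl, 0% of genes were called again (243 at an unadjusted p under 0.05, none by DESeq2), and the differences were 0.38 ± 0.45 for Slc40a1, −0.02 ± 0.29 for Hmox1, −0.20 ± 0.33 for Fth1, 0.10 ± 0.31 for Ftl1 and −0.52 ± 0.36 for Tfrc.

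The genotypes were then compared at each O2 level, and among the 10 genes Tfrc differed most at 1% O2 and Slc40a1 at 20% O2. For Tfrc in 20% O2, the 3 libraries labelled cKO (22.9, 13.1 and 23.6 CPM) lay below the 3 of Ctrl (37.5, 36.2 and 33.0 CPM), and in 1% O2 16.4, 14.1 and 13.7 CPM lay below 31.0, 35.5 and 29 CPM. Neither pair of groups overlapped. The log2 fold changes were −0.85 ± 0.20 in 20% O2 (adjusted p = 0.106) and −1.12 ± 0.20 in 1% O2 (adjusted p = 0.083), and neither was called by edgeR. In this test no member was called, against 0.347% of genes in 20% O2 and 0.0379% in 1% O2. DESeq2 called Tfrc at both O2 levels (adjusted p = 0.00544 and 0.00021), as did 4 of the other 9 settings (the adjusted p over these 10 settings ran from 0.00227 to 0.161 in 20% O2 and from 0.00021 to 0.128 in 1% O2). With any 1 library left out it kept its sign and was not called by edgeR. In 20% O2 the libraries without Xist counts held 13.1 and 23.6 CPM in cKO and 37.5 CPM in Ctrl. Those with Xist counts held 22.9 CPM in cKO and 36.2 and 33.0 CPM in Ctrl. These sets are too small for a test, and the part of sex in the difference was not tested.

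Slc40a1 went the other way. In 20% O2 the libraries labelled cKO held 15.6 to 21 CPM against 7.47 to 10.9 in Ctrl, and in 1% O2 55.9 to 70.6 against 16.5 to 47.3 CPM. The groups did not overlap at either O2 level. The log2 fold changes of 1.00 ± 0.31 and 0.79 ± 0.31 were not called (adjusted p = 0.209 and 0.248). Weighting libraries by quality in limma voom called both (adjusted p = 0.011 and 0.0286), and no other setting did. Both comparisons share no library with each other, but each uses the Ctrl group of its O2 comparison. In 1% O2, Heph gave −0.90 ± 0.40 (adjusted p = 0.289) with overlapping groups, and voom called it lower in cKO (−0.995, adjusted p = 0.0365). Ireb2 was 33.1 to 36.9 CPM in cKO against 39.4 to 57.8 CPM in Ctrl in 1% O2 (−0.51 ± 0.23, adjusted p = 0.295). Fth1, Ftl1, Hmox1, Aco1, Slc11a2 and Ncoa4 differed by 0.36 or less in either direction on the log2 scale at both O2 levels, with adjusted p of 0.356 or more. Slc11a2 was the one of these whose groups did not overlap, in 1% O2 (29.3 to 33.7 CPM in cKO against 35.0 to 39.5 in Ctrl). Of the 63 further iron genes none was called between genotypes at either O2 level. Cp held 0.713 to 1.08 CPM in cKO against 0.134 to 0.426 CPM in Ctrl in 20% O2, very low levels without overlap (log2 1.53 ± 0.59, adjusted p = 0.306). The 9 tendon fibroblast markers summed to 5226 to 10109 CPM in cKO and 10803 to 12796 CPM in Ctrl in 20% O2, overlapping in 1% O2. By gene, 6 of the 9 had positive and 3 negative log2 fold changes at both O2 levels (medians 0.16 and 0.33), the proteoglycan gene Dcn was called higher in cKO at both (1.96 and 2.58), none was called lower, and the abundant collagen gene Col1a1 gave −1.15 and −1.09. Of the 4 skeletal muscle markers, Myog and Ckm were at 0 in the Ctrl and cKO libraries and Myod1 at or near 0, so their sum was in effect Acta1, a skeletal muscle actin, at 9.32 to 15 against 22.0 to 41.8 CPM in 20% O2 (called lower, adjusted p = 0.0449) and 16.4 to 19.7 against 23.5 to 29.6 CPM in 1% O2. Their part in the Tfrc and Slc40a1 values was not tested.

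**Figure D4:**
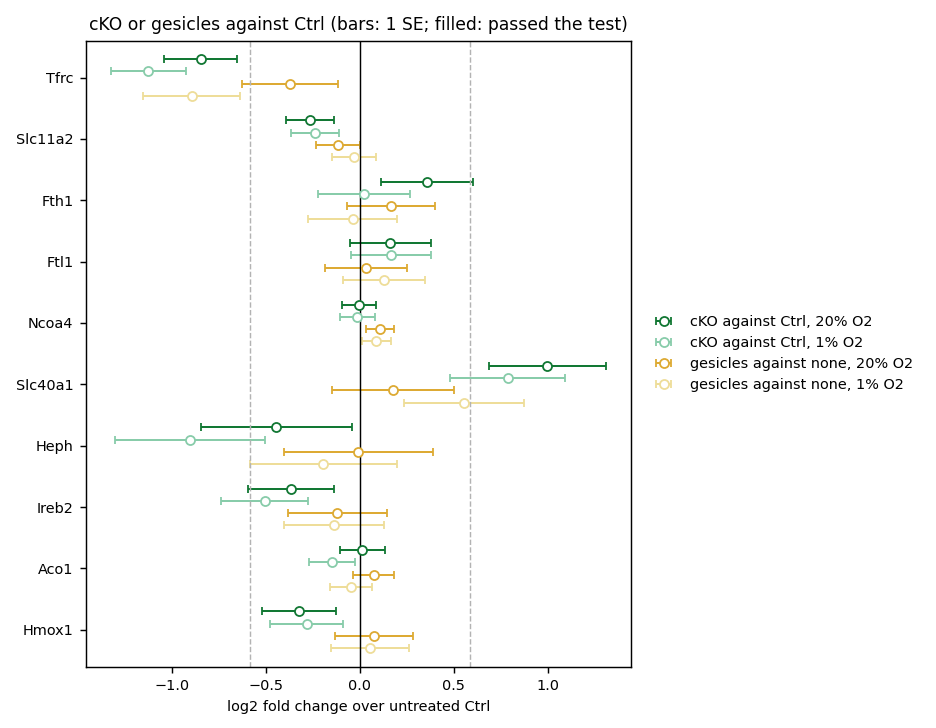
Log2 fold change of the 10 iron genes in cKO against Ctrl and in gesicle-treated against untreated Ctrl at each O2 level, with bars of 1 SE and dashed lines at 1.5-fold; all points are open because none was called. Tfrc lay below 0 (−0.85 and −1.12 in cKO, −0.37 and −0.89 with gesicles) and Slc40a1 above it (1.00 and 0.79 in cKO, 0.18 and 0.56 with gesicles).

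Cre gesicles in Ctrl TFs were compared with untreated Ctrl at the same O2 level. These comparisons share the untreated Ctrl libraries with those of cKO against Ctrl, so the values are set side by side only. None of the 10 genes was called at either level, where edgeR called 0.0247% of genes in 20% O2 and 0% in 1% O2 (594 and 324 genes at an unadjusted p under 0.05, and 46 and 0 called by DESeq2). Tfrc lay below untreated Ctrl without overlap, at 23.2, 32.8 and 26.5 CPM in 20% O2 (log2 −0.37 ± 0.25) and 21.4, 20.3 and 9.69 CPM in 1% O2 (−0.89 ± 0.26), both with an adjusted p of 1. In 20% O2 the gap was narrow, as the lowest untreated Ctrl library held 33.0 CPM. Ncoa4 lay above it without overlap at both levels (0.11 ± 0.08 and 0.09 ± 0.08). Slc40a1 gave 0.18 ± 0.32 and 0.56 ± 0.32, and Hmox1 0.08 ± 0.21 and 0.05 ± 0.21.

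A few libraries stood apart in ways that touch these genes. Replicate 2 of cKO in 20% O2 held 6629 CPM of Fth1 and 7760 of Ftl1 where its group mates held at most 3717 and 4555, and it had the lowest Tfrc (13.1 CPM), Ireb2 (26.4) and Heph (6.09) of its group. Across genes, its level fell by 0.226 on the log2 scale for each doubling of exon length relative to the mean of all libraries, and that of replicate 1 of cKO in 1% O2, the shallowest library, fell by 0.294. The other 16 libraries lay between −0.121 and 0.145. By group, Ctrl in 20% O2 (0.094 to 0.106) lay above Ctrl in 1% O2 (−0.058 to 0.088) and above cKO in 20% O2 (−0.226 to 0.059), without overlap. The groups overlapped for O2 in cKO and with gesicles, and for cKO against Ctrl in 1% O2. Of the 10 genes, Ftl1 (1340 bases) and Hmox1 (1751) had the shortest exon lengths, and Ireb2 (9479), Ncoa4 (9365) and Slc40a1 (9000) the longest. With an offset for a smooth trend in exon length and GC content for each library (99.9% of genes tested had both values), the O2 fold changes were 0.76 for Ftl1 and 1.87 for Heph in Ctrl, both called, and Tfrc was called lower in cKO at both O2 levels (−0.82, adjusted p = 0.0357, and −1.14, adjusted p = 0.0219).

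Finally, the genes whose log2 CPM was most correlated with 3 of the iron genes over the 18 libraries were listed, as a description over libraries that share O2 groups, depth and composition. For Slc40a1 these were Selenbp1 (Pearson r = 0.93), Vcam1 (0.93), Acp5 (0.92), Cyp39a1 (0.92) and Phactr2 (0.91). For Hmox1 they were Efcab1 (0.98), Tmem59l (0.97), Nr1h3 (0.97), As3mt (0.96) and Insig2 (0.96). For Tfrc they were Rsbn1 (0.90), Usp34 (0.90), Abl2 (0.89), Rasa2 (0.89) and Ppip5k2 (0.88).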

How the data were processed

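RNA-seq of 18 TF libraries was analysed. The authors trimmed paired-end reads with cutadapt, used STAR for alignment to GRCm38 and RSEM 1.3.3 for gene-level quantification. The deposited values are these estimated counts, given as whole numbers and not normalized; reads shared by near-identical genes were divided by likelihood, which bears on ferritin copies. Here genes with low counts were filtered (filterByExpr), and the rest were TMM-scaled and tested with edgeR 4.0.16 (glmQLFit, glmQLFTest, two-sided, R 4.3.3), with 1 coefficient per group and Benjamini-Hochberg adjustment over all genes tested. O2 in Ctrl and in cKO, the genotype comparisons and their interaction used the 12 Ctrl and cKO libraries (15850 genes), while comparisons with gesicles and the average over arms used all 18 (16174 genes). A call needed an adjusted p below 0.05 plus a change of 1.5-fold or more. Standard errors were derived from each gene's log2 fold change and its quasi-likelihood F statistic. In the shallowest library the members rested on as few as 115 counts (Tfrc).

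The labels do not say that replicates came from separate mice. The paper gives n = 3 for the mice used for TF isolation and for each RNA-seq condition, without tying libraries to mice. The p-values therefore measure the spread between these libraries. Same-numbered libraries deviated together in Ctrl across O2 levels (correlations of deviations from the group mean of 0.271, 0.300 and 0.458) and between gesicle-treated and untreated Ctrl (0.193 to 0.462), which by the rule used pairs them. In cKO across O2 not every pair passed 0.1 (0.0956, 0.0921 and 0.368), nor did every pair of the gesicle libraries across O2 or of Ctrl with cKO. The tests were checked on simulated counts. Alternatives were DESeq2 1.42.0, limma 3.58.1 voom with quality weights, RLE factors, no filter, no fold minimum, a replicate block, other library sets and leaving out each library. For O2 and the interactions the block was the replicate number within each arm. For cKO or gesicles against Ctrl it was the number across arms. Same-numbered Ctrl and cKO libraries did not deviate together in 20% O2 (correlations of −0.149, −0.0407 and −0.104). Another 4, chosen after seeing the data, were summed ferritin copies, library sizes without the 100 most counted genes, and offsets for each library's trend in exon length and GC (spline, 4 degrees of freedom), alone and with the block. The members and the gene lists were chosen with earlier results of these data known. Genes named were the 10 members, further iron genes that were called (up to 6 per comparison, by size), 7 fixed iron genes, ferritin copies, Hif1a and the 5 genes most alike to Slc40a1, Tfrc and Hmox1. Slc39a8 and the NRF2, hypoxia and cell type marker examples fall outside this rule and were chosen after their values were seen. Hairpin sequences were read from GENCODE M21 transcripts.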

Additional observations from a re-analysis of the deposited data

How the results depend on the processing

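Of 193 recounts of the members called under an alternative, 161 stayed within 1.5 times the first count. These 161 include comparisons with 0 members called both times, so the number does not measure how stable the O2 calls were. In Ctrl, 5 members were called in place of 3 for O2, Ftl1 and Heph being added, under DESeq2 (694 genes in all, against 298), no filter on low counts (422), the replicate block (368), voom (1543), all 18 libraries in 1 fit (434), and exon length and GC offsets alone (469) or with the block (680). In cKO, 5 in place of 2 were called under DESeq2 (889 genes, against 333), no filter (511), the replicate block (444), voom (2718), and offsets with the block (819), and 4 with all 18 libraries (487) or offsets alone (468). Under the block Fth1, Ftl1 and Heph were added in cKO (adjusted p = 0.0277, 0.0188 and 0.00682). Same-numbered cKO libraries matched in the presence of Xist counts at both O2 levels, but not every pair met the rule for pairing, and no label says whether they share a mouse. With gesicles, Heph was added to the 4 (5 in all) under the replicate block (472 genes, against 390), DESeq2 (728), voom (746) and 4 other settings. The block changed no other member call. Between genotypes, 1 member (Tfrc) in place of 0 was called in 20% and in 1% O2 under DESeq2 (432 and 288 genes, against 55 and 6), no filter (281 and 111), offsets alone (118 and 12) and with the block (128 and 16). Voom called Slc40a1 and Tfrc in 20% O2 (2 members, 1585 genes) and these and Heph in 1% O2 (3 members, 1274 genes), the block alone 0 members (64 and 2 genes) and the fit of all 18 libraries 0 (87 and 14). Between genotypes the block joins same-numbered Ctrl and cKO libraries, which no label pairs and which differ in the presence of Xist counts. The paper names a paired design for Ctrl against cKO but does not say which libraries were paired. Without a fold minimum the average over arms gave 7 members and 3980 genes, in place of 5 and 1697. With 1 library left out, the members called ranged from 2 to 3 for O2 in Ctrl, from 1 to 6 in cKO (6, with 1373 genes, without 20% O2 replicate 2; 1, with 98 to 143 genes, without 20% O2 replicate 1 or 3 or 1% O2 replicate 2) and from 2 to 4 with gesicles, and stayed at 5 for the average and at 0 elsewhere. No called member changed sign in any of 1930 recomputed values, and 141 values called in neither fit did. The cause of these differences was not tested. The shallow cKO library limits precision in 1% O2, where Tfrc rested on 115 counts.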
